A study of Mus musculus with 9 samples.

Results

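Cell cycle and DNA replication genes were followed in CD4+ T cells taken from the inflamed colon. The set holds 41 genes chosen by symbol. Of these, 17 were assigned to S phase, with roles in entry into it or in copying DNA and chromatin, and 24 to mitosis. All 41 were found among the 23415 rows of the deposited table. Libraries from recipients of CD160 knockout cells numbered 4, and 5 control libraries came from recipients of cells of wild-type littermates. In both groups the donor cells were naive CD4+ CD25- CD45RBhigh T cells and the recipients were Rag1-/- mice, which lack T and B cells of their own. The injected cells divide and cause colitis, and CD4+ T cells were sorted from the colonic lamina propria when disease was at its peak. CD160 is a surface receptor with an immunoglobulin domain, known from cytotoxic and intestinal lymphocytes, and HVEM is its ligand. The labels do not state the part of CD160 that was deleted, the age or sex of the mice, or whether any 2 libraries share a recipient mouse. The p-values therefore reflect variation among these libraries, part of which may be technical. Gene symbols are in capitals, as in the deposited table. The question addressed here is whether T cells without CD160 carried more or fewer transcripts of dividing cells than control T cells in the same disease.

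A dividing cell makes these transcripts in waves. E2F factors switch on the genes that load the MCM helicase on replication origins and supply nucleotides, and the DREAM, B-MYB and FOXM1 complexes first silence and later switch on the genes for spindle, chromosome condensation and chromosome separation. Resting naive T cells carry little of either wave, and activated T cells carry both, so the level in a bulk sample follows the share of cycling cells and the RNA of each such cell, which cannot be told apart here.

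Promoters of S phase and mitosis members held different sequence words, a property that the choice of genes by symbol did not use; the shares are a description, with no test. RefSeq promoter windows of GRCm38.p6, each running from 250 bases before to 50 bases after a gene's start, were at hand for 34 of the 41 members. Of 16 windows of S phase members (14 genes), 7 or 43.8% held an E2F word (TTTCCCGC, TTTGGCGC, TTTCGCGC or TTTGCCGC on either strand), against 1 of 20 windows of mitosis members (5.0%) and 2.26% of all 32851 windows. The cell cycle homology region, CHR (TTTGAA or TTCGAA on either strand), which DREAM and MuvB complexes bind, was in 15 of 20 mitosis windows (75.0%), 2 of 16 S phase windows (12.5%) and 19.2% of all windows. CCAAT on either strand, the word of the factor NF-Y, was in 85.0% of mitosis, 68.8% of S phase and 37.4% of all windows, and every mitosis window with a CHR also held CCAAT. A match of letters is a description and not a bound site. The 150 bases before the start are shown for 2 helicase genes and 4 mitosis genes whose levels are given below, each 5′ to 3′ on the gene's strand, with E2F, CHR and CCAAT words in capitals; neighbouring words can overlap, as in MCM6, where TTTGGCGC and GCGCGAAA share their middle, and a word on the opposite strand is printed as its reverse complement.
MCM5 chr8:75109359-75109508 (plus strand): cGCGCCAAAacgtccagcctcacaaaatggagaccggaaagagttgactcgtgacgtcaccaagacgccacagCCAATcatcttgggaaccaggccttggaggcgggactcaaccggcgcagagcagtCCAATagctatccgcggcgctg
MCM6 chr1:128359706-128359855 (minus strand): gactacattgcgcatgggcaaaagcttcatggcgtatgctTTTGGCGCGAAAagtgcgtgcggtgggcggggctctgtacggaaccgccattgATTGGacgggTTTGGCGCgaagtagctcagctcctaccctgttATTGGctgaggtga
CDK1 chr10:69352913-69353062 (minus strand): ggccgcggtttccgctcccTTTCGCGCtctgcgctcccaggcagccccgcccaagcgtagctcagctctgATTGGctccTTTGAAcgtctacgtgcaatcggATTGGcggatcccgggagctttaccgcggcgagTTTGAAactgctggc
CDC20 chr4:118437344-118437493 (minus strand): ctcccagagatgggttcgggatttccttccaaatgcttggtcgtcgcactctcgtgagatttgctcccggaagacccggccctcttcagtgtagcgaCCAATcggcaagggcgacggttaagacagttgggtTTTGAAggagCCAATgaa
UBE2C chr2:164769779-164769928 (plus strand): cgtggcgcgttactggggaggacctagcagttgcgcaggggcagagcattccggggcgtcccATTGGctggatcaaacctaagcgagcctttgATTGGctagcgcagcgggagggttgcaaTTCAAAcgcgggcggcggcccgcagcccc
CCNB1 chr13:100786487-100786636 (minus strand): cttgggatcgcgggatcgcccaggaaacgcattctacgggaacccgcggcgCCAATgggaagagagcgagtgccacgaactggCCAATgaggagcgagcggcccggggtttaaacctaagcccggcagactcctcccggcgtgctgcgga
In the bases shown, CDK1 held both kinds of word, with 1 E2F and 2 CHR words. CDC20 and UBE2C each held 1 CHR and 2 CCAAT words, and CCNB1 held 2 CCAAT words with no CHR in its window.

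One control library stood apart, and results are given with and without it. In control replicate 1, 7308 genes reached 1 TPM, against 11088 to 11711 in the other 8 libraries. TPM is a transcript abundance corrected for length and scaled in the deposited table so that each library has an equal sum, so levels of different genes can be compared, but depth is unknown. CD160 itself ranged from 5.44 to 18.8 TPM in the 4 knockout libraries and from 31.8 to 212 TPM in the 5 controls, without overlap. The defining T cell transcripts CD3D, CD3E, CD3G and CD4 were present in all 9 libraries. Markers of other cells were present as well, and macrophage markers the most, with a summed level of 12778 to 30275 TPM in knockout libraries, against 1508 TPM in control replicate 1 and 4654 to 18472 TPM in control replicates 2 to 5. The summed level of the 8 T cell markers was 3799.6 to 4818 TPM in knockout libraries, against 1861 TPM in control replicate 1 and 4688 to 5438 TPM in control replicates 2 to 5. The summed level of 5 neutrophil markers was 25.1 to 148 TPM in knockout libraries, against 325 TPM in control replicate 1, the highest of the 9 libraries, and 20.5 to 55.7 TPM in control replicates 2 to 5. The part of these cells in the members' values of control replicate 1 was not tested.

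Every member was transcribed in both groups, and no member passed the test for a difference between them. Over all 9 libraries the mean level of the members ran from 3.52 TPM to 138 TPM, and all 41 passed the filter for testing, which asked for 1 TPM in 4 libraries or more. In the fit of log2(TPM + 1) over 11495 genes with limma, a linear model that shares the variance estimate across genes, 0 of 41 members passed a Benjamini-Hochberg adjusted p of 0.05, where 0.0174% of all tested genes did. At an unadjusted p of 0.05, 0 members were higher in knockout libraries (5.78% of all genes) and 0 were lower (0.618% of all genes), and the smallest adjusted p among members was 0.745. Without control replicate 1 the numbers were again 0 of 41 in limma at the adjusted threshold (0.0262% of 11457 genes), 0 higher (8.44%) and 0 lower (4.41%) at the unadjusted one, with a smallest adjusted p of 0.453. The values of the groups overlapped for all 41 members in both fits, where 3.88% of genes were higher and 1.05% lower in every knockout library with all 9 libraries, and 4.01% and 3.01% with 8. CD160 itself was lower in every knockout library than in every control, yet it did not pass the adjusted threshold in limma. Its log2 difference was -2.79 (adjusted p 0.572) with 9 libraries and -3.11 (adjusted p 0.113) with 8. The 0 calls among members therefore do not show that the groups were equal.

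The size of the differences depended on control replicate 1. With it, 39 of 41 members had a positive log2 difference (knockout minus control), with a median of 0.51, but 86.7% of all tested genes were positive too, with a median of 0.46. Without it, 9 of 41 were positive and 32 negative, with a median of -0.085, while 47.5% of all genes were positive and their median was -0.014. The count of signs moved with single libraries: with knockout replicate 3 left out as well, 31 of 41 were positive. The standard error of a member's log2 difference was 0.30 to 0.94 with 9 libraries and 0.13 to 0.38 with 8. In the 8 libraries the 95% interval of the log2 difference included 0 for all 41 members, and for 40 of 41 it lay within a 2-fold change either way. The widest limits were -0.92 for BUB1, a checkpoint kinase, and 1.02 for CCNE1.

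**Figure D1:**
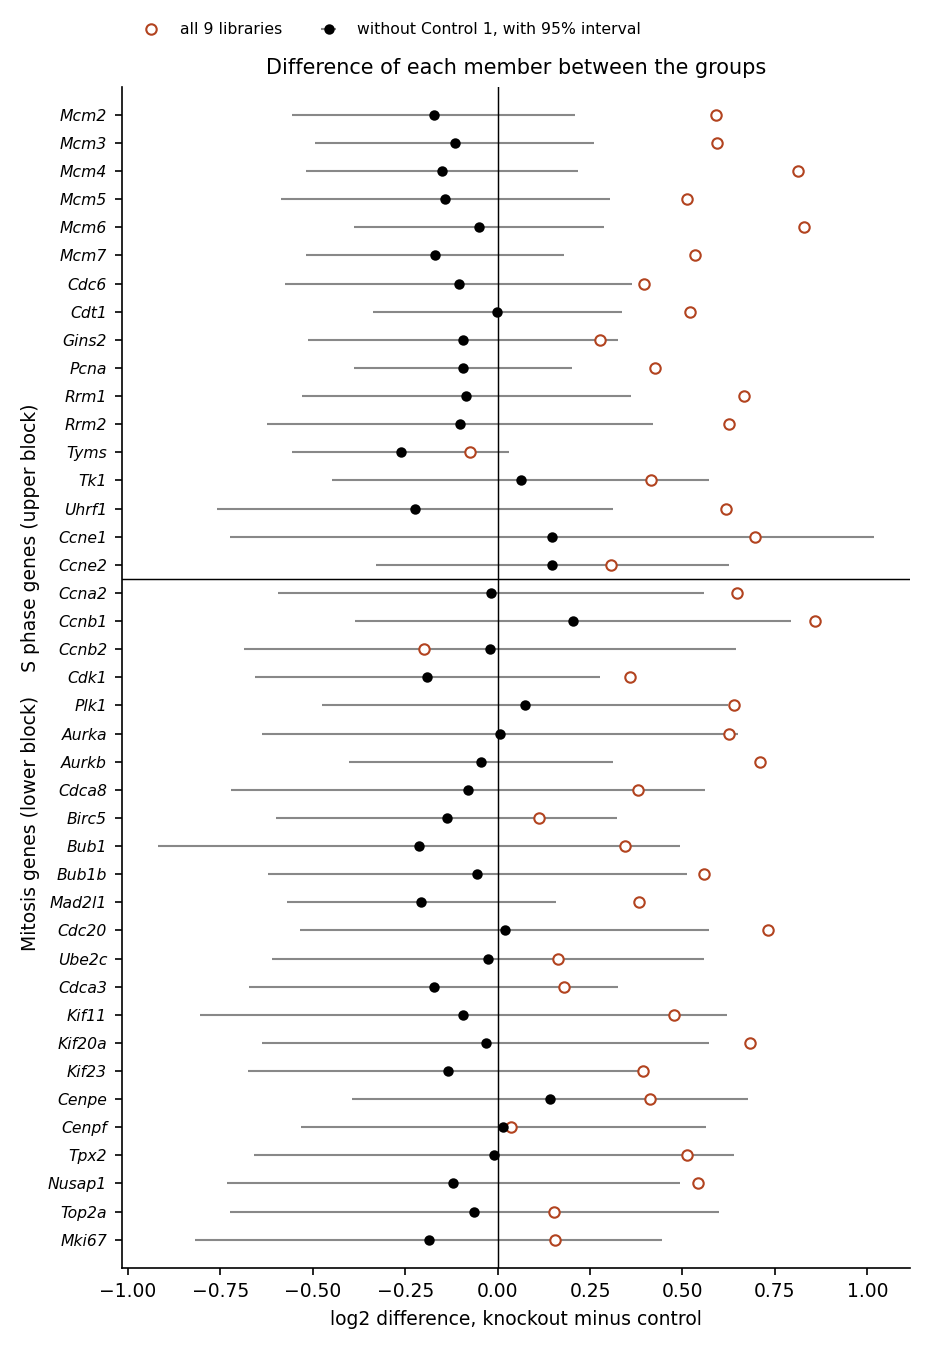
Difference in mean log2(TPM + 1) of each member, knockout minus control. Filled points with bars are estimates and 95% limma intervals without control replicate 1 (4 knockout and 4 control libraries) and open points are estimates with all 9 libraries. All 41 intervals cross 0, and 39 of 41 open points lie right of 0.

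The mean over the 17 S phase genes was close in the 2 groups. The S phase mean of log2(TPM + 1) was 5.71, 5.72, 5.11 and 5.46 in knockout replicates 1 to 4, 2.60 in control replicate 1, and 5.24, 5.76, 5.50 and 5.84 in control replicates 2 to 5. Knockout libraries averaged 5.50 ± 0.29 (SD, n = 4) and control replicates 2 to 5 averaged 5.59 ± 0.27 (SD, n = 4), a difference of -0.083 that was smaller than either SD. Over all 5 controls the mean was 4.99, and the difference was 0.51.

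The mean over the 24 mitosis genes had the same pattern. It was 5.07, 4.73, 4.24 and 4.95 in knockout replicates 1 to 4, 2.47 in control replicate 1, and 4.40, 5.03, 4.56 and 5.22 in control replicates 2 to 5. Knockout libraries averaged 4.75 ± 0.37 (SD, n = 4) and control replicates 2 to 5 averaged 4.80 ± 0.38 (SD, n = 4), a difference of -0.056, and with control replicate 1 the difference was 0.41. No p is given for these means, since the genes were chosen with results of these data known.

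The balance of the 2 waves within a library did not separate the groups. The S phase mean minus the mitosis mean, a log2 difference within each library, was 0.64, 0.99, 0.87 and 0.51 in knockout replicates 1 to 4 and 0.84, 0.73, 0.94 and 0.62 in control replicates 2 to 5, and 0.13 in control replicate 1. The highest and the lowest of the 8 values were both knockout libraries. Knockout libraries averaged 0.75 ± 0.22 (SD, n = 4) and control replicates 2 to 5 averaged 0.78 ± 0.14 (SD, n = 4).

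**Figure D2:**
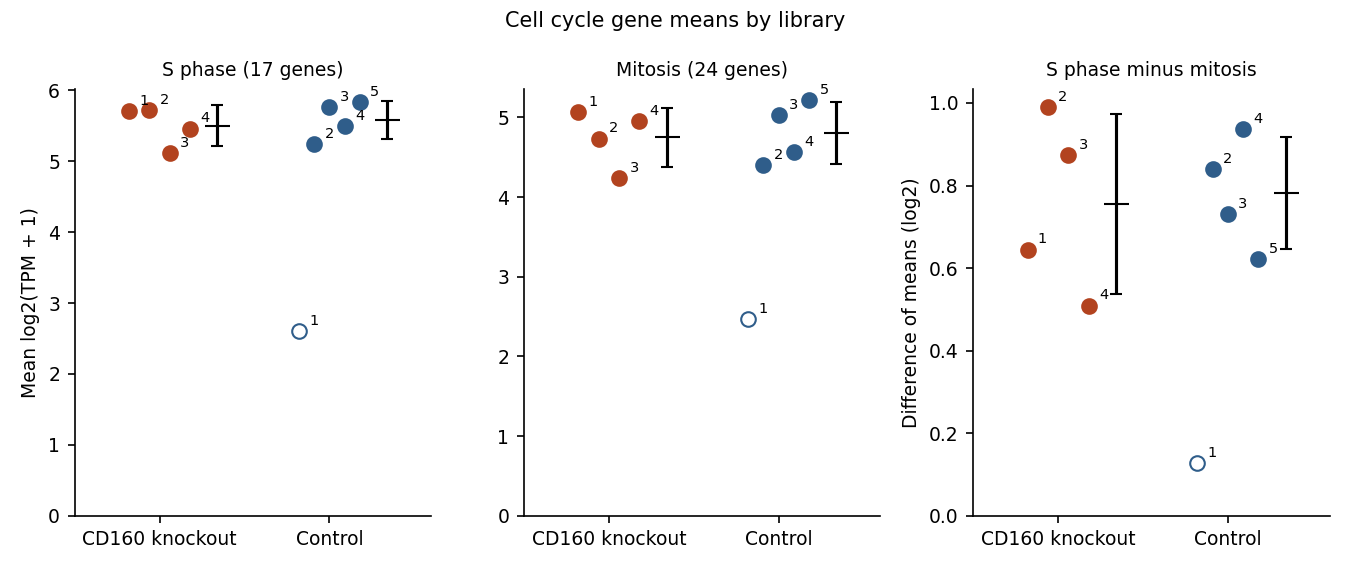
Mean log2(TPM + 1) of the 17 S phase genes, of the 24 mitosis genes, and the difference of the means within each library. Points are libraries with their replicate number, the open point is control replicate 1, and bars are mean ± SD of the 4 knockout libraries and of control replicates 2 to 5; the filled points of the groups overlap in each panel.

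Libraries of the same group differed more than the groups did. Knockout replicate 3 had the lowest value of the 8 libraries for 32 of 41 members, 14 of 17 in S phase and 18 of 24 in mitosis, and control replicate 2 the lowest for 7. Control replicate 5 had the highest value for 24 members and control replicate 3 for 7. The shares of all tested genes that were lowest or highest in these libraries were not computed, so these counts describe the members only. The members' summed level was 2278, 2045, 1375 and 2052 TPM in knockout replicates 1 to 4, against 461 TPM in control replicate 1 and 1621, 2288, 1779 and 2508 TPM in control replicates 2 to 5. The highest of the 8 libraries exceeded the lowest by 1.44-fold for MCM6 and up to 3.88-fold for CCNE1. Mitosis genes spread more than S phase genes across the 8 libraries, with a median SD of log2(TPM + 1) of 0.39 and 0.27, and the median over all tested genes was 0.25.

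**Figure D3:**
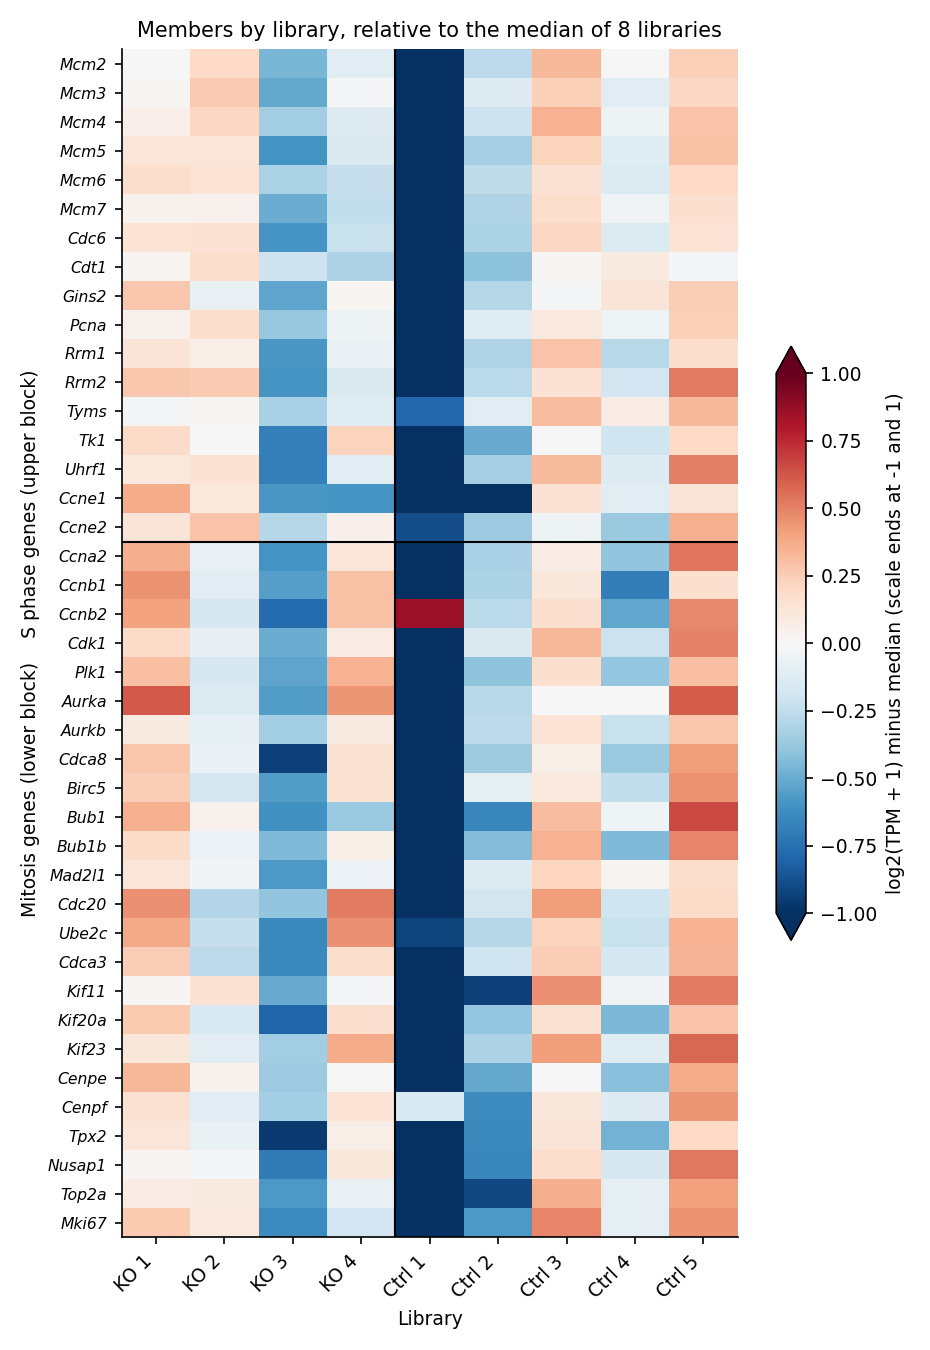
Level of each member in each library as log2(TPM + 1) minus the median of the 8 libraries other than control replicate 1, with knockout libraries (KO) left of controls (Ctrl). Red is above and blue below the median, colours end at -1 and 1, knockout replicate 3 is blue for most genes, and control replicate 1 is beyond the blue end for most genes but red for CCNB2.

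Macrophage markers also varied between libraries. Mean log2(TPM + 1) over the 11 macrophage markers in the table was 7.83, 8.62, 9.40 and 9.42 in knockout replicates 1 to 4, against 4.92 in control replicate 1 and 8.44, 6.84, 7.90 and 6.67 in control replicates 2 to 5, and all 11 had a higher mean in knockout libraries than in control replicates 2 to 5. The mean over all 41 members was 5.33, 5.14, 4.60 and 5.16 in knockout replicates 1 to 4. It was 2.52 in control replicate 1 and 4.75, 5.33, 4.95 and 5.48 in control replicates 2 to 5. Among the 8 libraries, higher macrophage means mostly came with lower member means. Knockout replicates 3 and 4, with nearly equal macrophage means, differed in their member means. The part of other cells in the members' values was not tested. The 8 T cell markers averaged 8.74 ± 0.16 in knockout libraries and 9.03 ± 0.091 in control replicates 2 to 5 (SD, n = 4 each), all 8 with a lower mean in the knockout libraries. Taken relative to these markers, a measure chosen after seeing the data, the S phase mean was -3.24 ± 0.29 in knockout libraries and -3.45 ± 0.19 in control replicates 2 to 5, and the mitosis mean was -4.00 ± 0.45 and -4.23 ± 0.32 (SD, n = 4 each). Both differences, 0.20 and 0.23, then had a positive sign, and the libraries of the groups still overlapped.

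**Figure D4:**
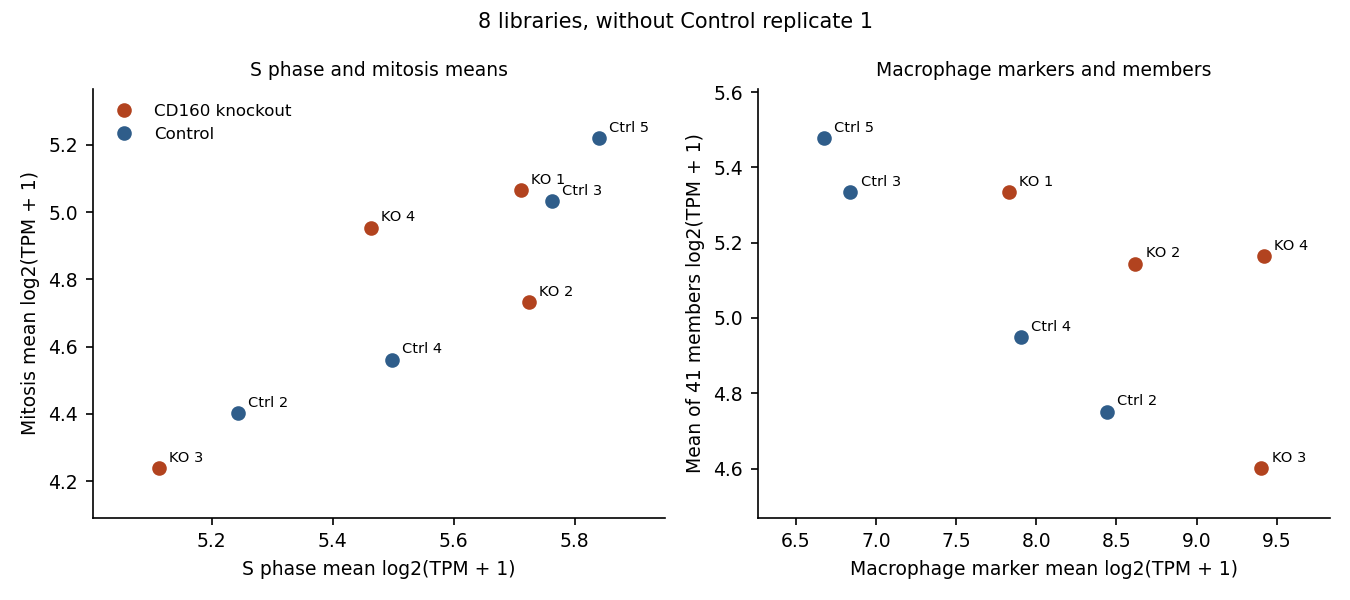
Left, S phase mean against mitosis mean for each of the 8 libraries other than control replicate 1; right, macrophage marker mean against the mean of the 41 members, all as mean log2(TPM + 1). Knockout (KO) and control (Ctrl) libraries are mixed along the left plot, from knockout replicate 3 at the bottom to control replicate 5 at the top, while on the right control replicates 5 and 3 have the lowest macrophage and high member means.

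The MCM helicase, the ring of MCM2 to MCM7 that unwinds DNA ahead of the fork, was among the more abundant groups, and its 6 genes had differences of the same sign in each fit. MCM6 (chromosome 1, 128331575 to 128359705, GRCm38.p6) was at 156, 152, 111 and 118 TPM in knockout replicates 1 to 4, against 5.56 TPM in control replicate 1 and 116, 154, 126 and 159.8 TPM in control replicates 2 to 5. Apart from control replicate 1 the values of the groups cover nearly the same range. Its means were 134 ± 23.3 TPM in knockout libraries and 139 ± 21.1 TPM in control replicates 2 to 5 (SD, n = 4 each), with a log2 difference of -0.051 (95% interval -0.39 to 0.29). MCM5, another subunit of the ring, ranged from 46.4 to 77.1 TPM in knockout libraries, against 6.56 TPM in control replicate 1 and 55.9 to 86.9 TPM in control replicates 2 to 5, and was picked to show its promoter. All 6 MCM genes had a negative difference without control replicate 1, from -0.17 to -0.051, and all 6 a positive one with it, from 0.51 to 0.83.

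The genes that place and start origins behaved alike. CDT1, which loads the MCM ring together with CDC6, was at 42.7, 47.8, 36.4 and 33.9 TPM in knockout replicates 1 to 4, against 5.71 TPM in control replicate 1 and 31.6, 42.5, 44.95 and 41.9 TPM in control replicates 2 to 5. Its mean was 40.2 TPM in both the knockout libraries and control replicates 2 to 5, a log2 difference of -0.001. CDC6 and GINS2, a subunit of the active helicase, had differences of -0.11 and -0.094 in the 8 libraries.

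Among the genes for the sliding clamp and nucleotide supply, PCNA was the most abundant member. PCNA, the clamp that holds DNA polymerase on its template, was at 156, 172, 117 and 147 TPM in knockout replicates 1 to 4, against 24.9 TPM in control replicate 1 and 139.6, 162, 148 and 179 TPM in control replicates 2 to 5. RRM1, the large subunit of ribonucleotide reductase, was at 58.2, 55.6, 35.0 and 50.6 TPM in knockout libraries, against 2.93 TPM in control replicate 1 and 43.0, 64.8, 43.6 and 60.1 TPM in control replicates 2 to 5. The groups overlapped for both genes, with log2 differences of -0.095 (interval -0.39 to 0.20) for PCNA and -0.085 (interval -0.53 to 0.36) for RRM1 in the 8 libraries. TYMS, which makes thymidylate, had the smallest unadjusted p of any member in these 8 libraries, 0.0734 in limma (adjusted p 0.453), and its log2 difference was -0.26 (interval -0.56 to 0.031). TK1, the thymidine salvage kinase, was the one gene of this group with a positive difference, 0.062, while RRM2 had -0.10 and UHRF1, which guides maintenance of DNA methylation behind the fork, -0.22.

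Cyclin E drives entry into S phase, and its 2 genes had positive differences in both fits. CCNE1 was at 29.35, 24.2, 14.7 and 14.5 TPM in knockout replicates 1 to 4, against 1.80 TPM in control replicate 1 and 7.56, 24.95, 20.8 and 24.55 TPM in control replicates 2 to 5. CCNE2 was at 4.65, 5.29, 3.24 and 4.35 TPM in knockout libraries, against 1.79 TPM in control replicate 1 and 3.03, 4.00, 3.0 and 5.63 TPM in control replicates 2 to 5. Their log2 differences in the 8 libraries, both 0.15, were smaller than their standard errors of 0.38 and 0.21, and for CCNE1 control replicate 2 was the lowest of the 8.

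Among the mitotic cyclins and their kinase CDK1, differences with 9 libraries ran from -0.20 for CCNB2 to 0.86 for CCNB1, with a median of 0.50 against 0.51 for all members. CCNB1, cyclin B1, had the smallest unadjusted p of any member with 9 libraries, 0.255 in limma (adjusted p 0.745), and its log2 difference was 0.86. It was at 45.6, 30.6, 22.3 and 40.8 TPM in knockout replicates 1 to 4, against 2.09 TPM in control replicate 1 and 26.4, 36.0, 20.1 and 37.2 TPM in control replicates 2 to 5, and its difference without control replicate 1 was 0.20 (interval -0.39 to 0.79). CDK1 was at 34.6, 28.5, 21.1 and 31.9 TPM in knockout libraries, against 4.06 TPM in control replicate 1 and 27.1, 38.2, 25.8 and 42.9 TPM in control replicates 2 to 5. Its difference was 0.36 with 9 and -0.19 with 8 libraries.

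CCNB2, cyclin B2, was the exception in control replicate 1. It was at 91.6, 61.9, 40.1 and 84.7 TPM in knockout replicates 1 to 4, against 126 TPM in control replicate 1 and 57.3, 77.15, 47.8 and 96.9 TPM in control replicates 2 to 5. Control replicate 1 was the lowest of the 9 libraries for 39 of 41 members and the highest for this 1 gene. Its level there was 1.80 times the mean of control replicates 2 to 5, where the median member was at 0.09 times. The others least reduced in that library were CENPF, a kinetochore protein, at 0.87 times, and UBE2C and TYMS, each at 0.51 times. These genes were picked after their values were seen. The share of all genes that were lowest or highest in control replicate 1 was not computed. That library was low beyond the members: its median log2(TPM + 1) over tested genes was 1.40, against 3.67 to 3.95 in control replicates 2 to 5. Without control replicate 1 the means of CCNB2 were 69.6 ± 23.4 TPM in knockout libraries and 69.8 ± 21.8 TPM in controls (SD, n = 4 each). CCNB1, CCNB2, TYMS and PCNA have pseudogene copies in the annotation, and whether reads were shared with these was not tested.

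Mitotic kinases and the chromosomal passenger complex overlapped between the groups. PLK1, the polo kinase that starts mitosis, was at 33.0, 23.6, 18.2 and 34.2 TPM in knockout replicates 1 to 4, against 2.65 TPM in control replicate 1 and 19.9, 29.9, 20.1 and 33.0 TPM in control replicates 2 to 5. BIRC5, survivin, which recruits Aurora B to the centromere, was at 141, 105, 80.2 and 131 TPM in knockout libraries, against 51.2 TPM in control replicate 1 and 110.6, 127, 100.04 and 162 TPM in control replicates 2 to 5. For both genes knockout replicate 3 was the lowest of the 8 libraries, and the other knockout libraries lay among the controls or, for PLK1, just above them. The 5 genes of this group had log2 differences from -0.14 to 0.073 without control replicate 1.

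The spindle checkpoint genes, which delay anaphase until every chromosome is attached, had 3 negative differences out of 3 in the 8 libraries, from -0.21 to -0.055. MAD2L1 was at 32.55, 29.3, 19.8 and 28.7 TPM in knockout replicates 1 to 4, against 3.24 TPM in control replicate 1 and 27.3, 34.9, 30.5 and 33.9 TPM in control replicates 2 to 5. BUB1B was at 21.2, 17.7, 13.35 and 19.3 TPM in knockout libraries, against 1.32 TPM in control replicate 1 and 13.5, 23.8, 13.4 and 26.3 TPM in control replicates 2 to 5. The intervals of their log2 differences, -0.57 to 0.16 and -0.62 to 0.51, include 0.

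Genes for the destruction of proteins at the end of mitosis were high and varied within both groups. UBE2C, the ubiquitin-conjugating enzyme of the anaphase-promoting complex, was at 183, 119, 89.5 and 193 TPM in knockout replicates 1 to 4, against 73.5 TPM in control replicate 1 and 115, 163, 120.25 and 179 TPM in control replicates 2 to 5. CDC20, its activator, was at 57.9, 34.02, 31.7 and 60.6 TPM in knockout libraries, against 2.77 TPM in control replicate 1 and 36.8, 56.2, 36.5 and 47.7 TPM in control replicates 2 to 5. Knockout replicates 1 and 4 were the highest and replicates 2 and 3 lower for both genes. The knockout libraries spanned the whole range of the 8, with replicate 4 the highest and replicate 3 the lowest. The log2 differences were -0.025 for UBE2C and 0.019 for CDC20, each with a standard error near 0.25.

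Spindle motors, kinetochore proteins and chromosome proteins had the same overlap. NUSAP1, a spindle microtubule protein, was at 32.6, 31.6, 19.4 and 34.8 TPM in knockout replicates 1 to 4, against 2.28 TPM in control replicate 1 and 20.1, 36.4, 28.6 and 46.8 TPM in control replicates 2 to 5. CENPE, the kinetochore motor, was at 7.29, 5.79, 4.11 and 5.58 TPM in knockout libraries, against 1.33 TPM in control replicate 1 and 3.61, 5.60, 3.93 and 7.53 TPM in control replicates 2 to 5. Control replicate 5 was the highest of the 8 for both. TOP2A, the topoisomerase that untangles sister chromatids, was at 63.9, 64.7, 40.5 and 57.8 TPM in knockout libraries, against 27.1 TPM in control replicate 1 and 31.8, 78.6, 56.75 and 81.2 TPM in control replicates 2 to 5. MKI67, the source of the proliferation antigen Ki-67, was at 19.9, 17.6, 10.2 and 14.2 TPM in knockout libraries, against 4.62 TPM in control replicate 1 and 10.7, 23.5, 15.3 and 22.8 TPM in control replicates 2 to 5. For MKI67 and TOP2A the knockout values lay inside the span of control replicates 2 to 5 except for knockout replicate 3 in MKI67, and the log2 differences were -0.19 (interval -0.82 to 0.45) and -0.064 (interval -0.73 to 0.60).

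Other genes of the same pathways, from lists chosen with earlier results of these data known, gave 0 calls at the adjusted threshold in either limma fit. Counts over these lists are a description, with no test. Of 47 further replication genes, 41 had a negative difference in the 8 libraries, with a median of -0.19 against -0.014 for all genes; 6 were lower and 0 higher at an unadjusted p of 0.05, where 4.41% of all genes were lower and 8.44% higher. For 5 of the 47 every knockout library lay below control replicates 2 to 5, where 3.01% of all genes did. With 9 libraries 43 of the 47 were positive, with a median of 0.27 against 0.46 for all genes. RPA3, the small subunit of the single-strand binding protein, was at 76.3, 78.7, 71.6 and 84.0 TPM in knockout replicates 1 to 4, against 13.1 TPM in control replicate 1 and 112, 115, 94.5 and 106 TPM in control replicates 2 to 5, a log2 difference of -0.45 (adjusted p 0.117 in limma) without control replicate 1 and 0.13 with it. TIPIN, a fork protection protein, and PRIM1, the primase, had log2 differences of -0.45 and -0.46 in the 8 libraries (adjusted p 0.207 and 0.277). Of 65 further mitosis genes 53 were negative in the 8 libraries, with a median of -0.11, and 1 was lower at an unadjusted p of 0.05, where 4.41% of all genes were. That gene was PTTG1, the securin that holds back sister separation, with a log2 difference of -0.36.

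Genes that govern the cycle were also not called. In the 8 libraries the groups did not overlap for 1 of 5 CDK inhibitors, 1 of 21 E2F, RB and MuvB genes and 1 of 11 quiescence genes, beside 4.01% of all genes higher and 3.01% lower without overlap, and single genes at such shares are no result about their lists. Among 5 tested CDK inhibitors, CDKN2D, the inhibitor p19 of the cyclin D kinases, was at 110.4, 110.5, 100.5 and 115 TPM in knockout libraries, against 19.4 TPM in control replicate 1 and 125, 136, 135 and 132 TPM in control replicates 2 to 5, without overlap once control replicate 1 is set aside (log2 difference -0.27, adjusted p 0.180 in limma). CDKN1B, the inhibitor p27 of resting cells, had -0.57 (adjusted p 0.386), and CDKN1A, the inhibitor p21, had 0.61 (adjusted p 0.481). Of the 6 G1 cyclins and kinases 5 were negative, with CCND2 at -0.30 and CDK4 at -0.089. Of 21 tested E2F, RB and MuvB genes 13 were negative, and E2F4, a repressor E2F, did not overlap between the groups, at 19.8, 21.15, 19.4 and 19.5 TPM in knockout libraries, against 2.05 TPM in control replicate 1 and 13.7, 18.3, 18.5 and 17.9 TPM in control replicates 2 to 5. Its log2 difference in the 8 libraries was 0.22 (adjusted p 0.515 in limma). Of 11 tested DNA damage genes 7 were negative, and CHEK2, a checkpoint kinase, had 0.31. Of 11 T cell quiescence genes 9 were negative, and BTG1, an antiproliferative factor, was at 90.9, 101, 87.2 and 82.2 TPM in knockout libraries, against 47.3 TPM in control replicate 1 and 102, 113, 118 and 134 TPM in control replicates 2 to 5 (log2 difference -0.36, adjusted p 0.194 in limma), without overlap once control replicate 1 is set aside. All these counts are of the 8 libraries, in which macrophage markers were also higher and T cell markers lower in the knockout group, as given above, and their part in these values was not tested.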

How the data were processed

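RNA was measured in 4 CD160 knockout and 5 control libraries of sorted colonic CD4+ T cells, prepared by a modified SMART-Seq2 method from polyadenylated RNA and read from both ends, per the labels' protocols. The authors deposited TPM values, 1 column per library. RSEM 1.2.31, Bowtie2 2.2.9, Trimmomatic 0.32 and the build GRCm38 are listed in the submitters' processing notes; their settings are not given in the sources used here. TPM keeps no depth, so counting error is unknown.

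Groups and replicate numbers follow the titles. limma 3.58.1 in R 4.3.3 (eBayes with trend) was fitted to log2(TPM + 1), which understates changes of low genes, over genes at 1 TPM or more in at least 4 libraries, with Benjamini-Hochberg adjustment over all of them. Members were read from that fit. Exact two-sided permutation tests per gene ran over the 126 splits of 9 or 70 splits of 8 libraries, and reach 0.0159 and 0.0286 at the smallest. Alternatives were pseudocounts of 0.1 and 5, other filters, median-of-ratios and quantile scaling, library weights, the replicate number as a block, medians over members, and leaving out libraries; pairs of left-out libraries and T cell markers as a baseline were added after seeing the data. The fit was run on simulated data with independent noise per gene and added shifts. These held no outlying library and no correlation between genes, so the check does not cover those traits of the data.

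The members and lists were chosen with earlier results of these data known. Genes given in full are, per role, the most abundant member and the one with the smallest p with 9 libraries, plus MKI67, PCNA, CCNB1, CCNE1, CCNE2 and CDK1; of other lists, those with the smallest p without control replicate 1 and the most abundant, of which a part is printed. Python 3.11.15 and matplotlib 3.10.9 made the plots.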

Additional observations from a re-analysis of the deposited data

Results flagged for a closer look

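Control replicate 1 lay far below the other 4 control libraries in the S phase mean, at 2.60 on the log2(TPM + 1) scale. It did so as well, on that scale, for MCM6 at 2.71, CDT1 at 2.75, PCNA at 4.69, RRM1 at 1.97, CCNB1 at 1.63, CDK1 at 2.34, PLK1 at 1.87, BUB1B at 1.21, MAD2L1 at 2.08 and CDC20 at 1.91. In these the gap to the nearest control took up more than 0.71 of the range of the 5 controls. Over all 41 members 27 met this limit in the control group. The share over all tested genes was not computed. Control replicate 1 was low beyond the members, with a median log2(TPM + 1) over tested genes of 1.40, against 3.67 to 3.95 in control replicates 2 to 5. In the knockout group of 4 libraries, where the limit is a larger part of the range (0.83), 1 member met it. Chance gives about 1 in 20 groups in each for independent values. Genes of the same library are not independent, so both counts are a description. That 1 gene was NUSAP1, at 4.35 in knockout replicate 3, the lowest of the 4 knockout libraries. The same library was the lowest of 8 for 32 of 41 members, and the share over all tested genes was not computed for this either.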

How the results depend on the processing

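No setting called a member: 0 of 41 passed the adjusted threshold in the fits over all genes under any alternative run (39 were tested with a filter of 5 TPM). At an unadjusted p of 0.05 at most 1 member passed under any of them, and the exact permutation test per gene gave 0. With 9 libraries the exact test cannot go below 0.0159. Such a p passes the adjustment over 11495 genes only if a large share of all genes reaches it. Its 0 calls at the adjusted threshold were therefore nearly fixed in advance and carry no weight. The number of genes called, 2 over all tested genes, was 1 with a pseudocount of 5, 0 with no filter, 0 with a filter of 5 TPM, 0 with the exact test, 4 with median-of-ratios scaling and no control replicate 1, and 521 with library weights; leaving out libraries gave 0 to 15. With median-of-ratios scaling of all 9 libraries 21 of 41 members had a positive difference and the median of all genes was 0.018, against 39 and 0.46 as deposited. The S phase and mitosis differences were -0.030 and -0.11 with that scaling, and the 19 named members changed sign in 10 cases. With quantile scaling this was also 10, with library weights 16 and without control replicate 1 12. With library weights 2 of 41 members had a positive difference, with a median of -0.23 against -0.045 for all genes. The smallest adjusted p among members was then 0.131 in limma. The cause of these changes was not tested. Replicate numbers showed no pairing of the libraries. With all 9, same-numbered libraries had correlations of -0.14 to -0.017 between their deviations, and 0 of 4 knockout libraries correlated best with their own number. Without control replicate 1 the correlations were -0.22, -0.16 and 0.001 for replicates 2, 3 and 4, again with 0 of 4. Few libraries were compared, so this cannot exclude a pairing. With the replicate block 0 genes were called over all genes (750 at an unadjusted p of 0.05), and the S phase difference was 0.73; with the block and no control replicate 1, 0 genes were called (950 at an unadjusted p of 0.05) and it was -0.068. Depth is unknown, so low members such as CCNE2 and CENPF carry an unknown counting error.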
